A study of Mus musculus with 6 samples.

Results

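Skeletal muscle contracts when calcium leaves the sarcoplasmic reticulum and relaxes when the calcium is pumped back. The transcripts of 10 genes of this cycle (Ryr1, Cacna1s, Atp2a1, Atp2a2, Casq1, Casq2, Pvalb, Sln, Trdn and Jph1) were read in RNA-seq libraries of newborn mouse parietal bone. The genes were listed by name and found by their exact symbols. All 10 were present among the 44556 genes of the count tables, and all 10 had enough counts to be tested. The study asked how deletion of Stat3 in osteoblasts changes gene expression in the skull vault. It compared 3 OsxCre newborns, the controls, with 3 OsxCre;Stat3fl/fl littermates, all on the C57BL/6 background. Both genotypes carry the OsxCre transgene, in which Cre recombinase is driven by the Osterix promoter and acts mainly in osteoblast precursors, and both Stat3 alleles carry loxP sites in the OsxCre;Stat3fl/fl mice. Cre is thus not directed to muscle. The RNA was isolated from parietal bone, and the labels name no muscle.

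In the muscle fibre, the membrane folds inward as t-tubules, which meet the sarcoplasmic reticulum at junctions called triads. There the voltage sensor in the t-tubule opens the ryanodine receptor of the reticulum, and calcium stored on calsequestrin flows out to the filaments. Calcium pumps of the SERCA family then return it, while small membrane peptides restrain the pumps and parvalbumin binds calcium in the cytosol of fast fibres.

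The libraries held between 8193651 and 12080044 counts on genes, and every OsxCre;Stat3fl/fl library was smaller than every OsxCre library. Levels are given as CPM, a gene's counts scaled to a common library size, with TMM factors that adjust each library for its composition. Stat3 itself was not lower in the OsxCre;Stat3fl/fl libraries, with 135 to 150 CPM in OsxCre and 153 to 155 CPM in OsxCre;Stat3fl/fl (edgeR's quasi-likelihood test, adjusted p = 0.4415). The loxP sites flank only some exons of Stat3, and counts per gene in mixed tissue cannot show whether those exons were lost. By western blot, the study reported loss of STAT3 protein in cultured bone marrow mesenchymal stem cells from older mice of this genotype. The study describes male newborns, whereas Xist had between 7333 and 12392 counts in each library and 4 Y-linked genes had 2 counts over all libraries together. Osteoblast markers marked the tissue as bone, with a sum over 8 genes of 12565 to 16832 CPM in OsxCre and 10979 to 14025 CPM in OsxCre;Stat3fl/fl. Striated muscle was present as well. The summed level of 12 general muscle genes (among them Acta1, Ckm, Ttn and Neb) was 30449 to 35073 CPM in OsxCre and 36020 to 52594 CPM in OsxCre;Stat3fl/fl, highest in OsxCre;Stat3fl/fl library 2. Of the 12 genes, 11 had a higher mean level in OsxCre;Stat3fl/fl, 0 passed an adjusted p of 0.05, and none was at 0. In bulk RNA, more muscle cells and more of these transcripts per muscle cell cannot be told apart.

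The genes of release were lower in the OsxCre;Stat3fl/fl libraries. Ryr1 (chr7:29003340-29125179, GRCm38.p6 as all positions here) encodes the ryanodine receptor, the channel through which calcium leaves the reticulum. Its level was 313, 292 and 397 CPM in OsxCre libraries 1, 2 and 3 and 236, 286 and 183 CPM in OsxCre;Stat3fl/fl libraries 1, 2 and 3. The genotypes did not overlap, although the highest OsxCre;Stat3fl/fl value lay just under the lowest OsxCre value. The log2 fold change was -0.51 (standard error 0.18), which did not pass the threshold (edgeR, adjusted p = 0.2115).

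Cacna1s (chr1:136052806-136119822) encodes the pore subunit of the voltage sensor that opens the ryanodine receptor. It had 183, 183 and 201 CPM in OsxCre and 132, 160 and 109 CPM in OsxCre;Stat3fl/fl. Each OsxCre;Stat3fl/fl library lay below each OsxCre library. The log2 fold change was -0.50 (standard error 0.13), with an adjusted p = 0.1271 from edgeR. Voltage sensor and release channel differed between genotypes by nearly the same factor, 0.706 for Cacna1s and 0.703 for Ryr1.

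For the genes that hold the triad together, the genotypes overlapped with TMM scaling. Trdn (chr10:33083483-33476709) encodes triadin, which anchors calsequestrin to the release channel. It had 128, 114 and 141 CPM in OsxCre and 118, 139 and 122 CPM in OsxCre;Stat3fl/fl. This gave a log2 fold change of -0.02 with a standard error of 0.10. Jph1 (chr1:16942104-17097922) encodes junctophilin, which ties the t-tubule to the reticulum. Its level was 64.4, 73.4 and 77.5 CPM in OsxCre and 58.8, 81.8 and 76.4 CPM in OsxCre;Stat3fl/fl. This gave a log2 fold change of 0.01 with a standard error of 0.13. Neither gene passed the threshold (edgeR, adjusted p = 0.9621 for Trdn and 0.9816 for Jph1).

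Both calsequestrin genes had higher levels in OsxCre;Stat3fl/fl. Casq1 (chr1:172209894-172219895) encodes the calcium store protein of skeletal muscle that prevails in fast fibres. It had 567, 551 and 654 CPM in OsxCre and 836, 1115 and 693 CPM in OsxCre;Stat3fl/fl. This gave a log2 fold change of 0.58 with a standard error of 0.17. Casq2 (chr3:102086415-102146514), the form of heart and slow fibres, had 632, 664 and 634 CPM in OsxCre and 815, 1148 and 792 CPM in OsxCre;Stat3fl/fl. This gave a log2 fold change of 0.51 with a standard error of 0.15. In both genes the genotypes did not overlap and OsxCre;Stat3fl/fl library 2 was the highest. Neither gene passed the threshold (edgeR, adjusted p = 0.1605 for Casq1 and 0.1494 for Casq2). Without OsxCre;Stat3fl/fl library 2, the log2 fold changes were 0.38 and 0.33.

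For the calcium pumps the genotypes overlapped with TMM scaling. Atp2a1 (chr7:126445858-126463103) encodes SERCA1, the pump of fast fibres, and had the most CPM of the 10 genes. Its level was 1961, 1854 and 2011 CPM in OsxCre and 1808, 2637 and 1814 CPM in OsxCre;Stat3fl/fl. OsxCre;Stat3fl/fl library 2 lay above all OsxCre libraries and libraries 1 and 3 below them, so that the log2 fold change of 0.10 (standard error 0.16) was -0.094 without library 2 and -0.32 when scaled to muscle counts, as described further on. Atp2a2 (chr5:122453513-122502225) encodes SERCA2, the pump of slow fibres and heart that other cells also use. It had 292, 277 and 345 CPM in OsxCre and 286, 363 and 301 CPM in OsxCre;Stat3fl/fl. This gave a log2 fold change of 0.06 with a standard error of 0.12, and of -0.35 when scaled to muscle counts (below 0 also without scaling).

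Sln (chr9:53850251-53853849) encodes sarcolipin, a small membrane peptide that restrains the SERCA pumps. Its level was 282, 337 and 263 CPM in OsxCre and 485, 457 and 390 CPM in OsxCre;Stat3fl/fl. All OsxCre;Stat3fl/fl libraries were above all OsxCre libraries, and library 2 did not stand out. The log2 fold change was 0.60 (standard error 0.12), and its adjusted p, 0.0718 from edgeR, was the smallest among the 10 genes.

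Pvalb (chr15:78191112-78206400) encodes parvalbumin, the cytosolic calcium buffer of fast fibres. It had 70.1, 50.7 and 124.9 CPM in OsxCre and 123, 110 and 191 CPM in OsxCre;Stat3fl/fl. Library 3 was the highest in each genotype, and the genotypes overlapped. The log2 fold change of 0.78 (standard error 0.33) was the largest of the 10 and had the largest error (edgeR, adjusted p = 0.2987). It was 0.51 without OsxCre;Stat3fl/fl library 3, 0.53 without OsxCre library 2 and 1.22 without OsxCre library 3.

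**Figure D1:**
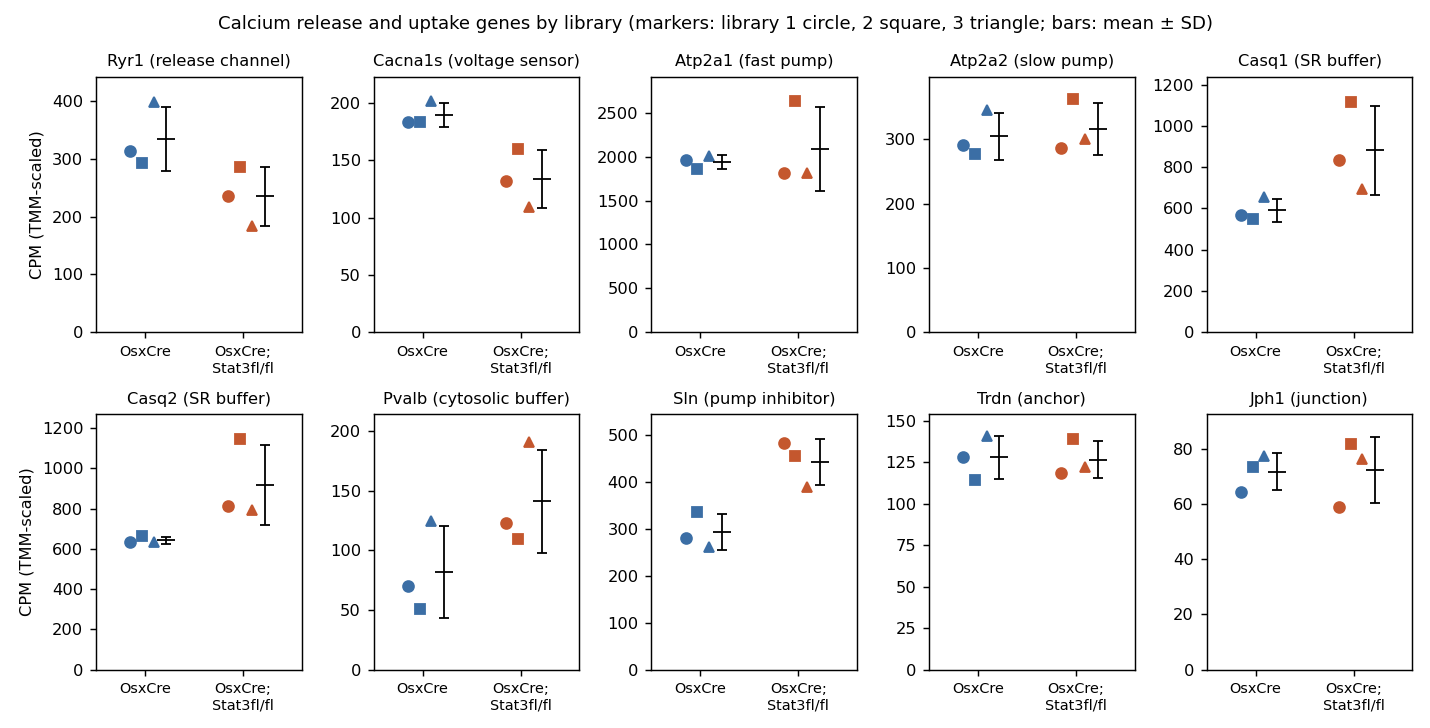
TMM-scaled CPM (y axis, from 0) of the 10 genes in each library, with OsxCre in blue and OsxCre;Stat3fl/fl in orange, markers for libraries 1 to 3 and black bars for the mean ± SD (n = 3). Ryr1 and Cacna1s lie lower and Casq1, Casq2 and Sln higher in all OsxCre;Stat3fl/fl libraries, while the other 5 genes overlap.

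Of the 10 genes, 0 passed an adjusted p of 0.05 in edgeR's quasi-likelihood test, which called 1.26% of the 15600 genes tested, 0.481% lower and 0.776% higher. DESeq2 called Cacna1s lower (adjusted p = 0.01383) and Casq1, Casq2 and Sln higher (0.009201, 0.008675 and 0.0002036), where it called 1.63% lower and 2.11% higher of the 14385 genes to which it gave an adjusted p. With limma-voom 0 of the 10 were called. At an unadjusted p under 0.05 in edgeR, 2 were lower, where 8.34% of all genes were, and 4 were higher, where 8.03% of all genes were. Non-overlapping genotypes were seen for 23% of all genes tested, 12.2% with the lower and 10.8% with the higher level in OsxCre;Stat3fl/fl, and for 5 of the 10 genes, of which 2 had the lower and 3 the higher level. The median log2 fold change of the 10 genes was 0.08, beside 0.00 for all genes. An exact permutation test of 3 libraries against 3 cannot go below p = 0.1, two-sided, which was reached by the 5 genes without overlap.

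Levels can be compared between genes only per length of transcript. Per kilobase of the longest annotated transcript, Sln and Atp2a1 led in OsxCre with 570 ± 75.2 and 559 ± 23.0 CPM per kilobase (SD, n = 3), and their ranges overlapped. Casq1 followed with 315 ± 29.7 and Casq2 with 251 ± 6.98 CPM per kilobase, each apart from its neighbours in the order. Pvalb, with 83.8 ± 39.4, overlapped with Atp2a2, with 53.7 ± 6.35 CPM per kilobase. Jph1, Cacna1s, Trdn and Ryr1 came last, between 32.7 and 21.8 CPM per kilobase, and each overlapped with the next. In OsxCre;Stat3fl/fl the order was the same except that Trdn, with 28.0 ± 2.44, came before Cacna1s, with 21.4 ± 4.09 CPM per kilobase, without overlap. The ranges of Atp2a1, Casq1 and Casq2 overlapped there from each to the next, and Pvalb lay apart from Atp2a2. Atp2a1 exceeded Ryr1 by a factor of 25.7 per kilobase in OsxCre and 39.2 in OsxCre;Stat3fl/fl. The transcripts counted by the authors are not known, so these levels rest on the annotation used.

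Promoters from RefSeq (GRCm38.p6) were found for 6 of the 10 genes. Those of Atp2a2, Sln, Trdn and Jph1 were not analysed here. The 250 bases before the start site that goes with the promoter are shown for 4 genes. These were chosen because Ryr1 and Cacna1s were lower, and Casq1 and Casq2 higher, in all OsxCre;Stat3fl/fl libraries. For Ryr1 and Cacna1s that start site lies slightly inside the gene positions given above. The sequences read 5′ to 3′ on the strand of the gene, with matches to any of 4 motifs in capitals.
Ryr1, chr7:29125152-29125401, minus strand: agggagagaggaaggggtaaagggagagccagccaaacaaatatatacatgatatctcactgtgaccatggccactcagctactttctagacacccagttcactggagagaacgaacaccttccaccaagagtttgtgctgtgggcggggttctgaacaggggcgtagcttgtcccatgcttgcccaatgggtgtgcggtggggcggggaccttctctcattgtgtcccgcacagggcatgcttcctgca
Cacna1s, chr1:136052561-136052810, plus strand: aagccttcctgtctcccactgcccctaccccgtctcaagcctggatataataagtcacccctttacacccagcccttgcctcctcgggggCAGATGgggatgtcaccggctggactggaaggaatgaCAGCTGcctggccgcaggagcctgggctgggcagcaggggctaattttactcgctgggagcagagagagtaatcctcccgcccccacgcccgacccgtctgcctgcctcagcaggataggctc
Casq1, chr1:172219896-172220145, minus strand: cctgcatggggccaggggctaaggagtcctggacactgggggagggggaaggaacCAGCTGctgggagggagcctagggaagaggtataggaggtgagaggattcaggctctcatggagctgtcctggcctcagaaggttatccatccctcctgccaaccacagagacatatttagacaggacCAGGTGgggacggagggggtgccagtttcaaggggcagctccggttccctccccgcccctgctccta
Casq2, chr3:102086165-102086414, plus strand: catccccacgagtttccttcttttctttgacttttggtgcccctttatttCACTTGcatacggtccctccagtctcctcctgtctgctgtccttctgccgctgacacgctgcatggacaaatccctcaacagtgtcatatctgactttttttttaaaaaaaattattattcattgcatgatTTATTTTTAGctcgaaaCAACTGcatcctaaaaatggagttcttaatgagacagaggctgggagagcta
The motifs were the E-box CANNTG, which myogenic factors such as MyoD bind, the MEF2 consensus of muscle gene promoters, the CArG box bound by SRF, and TTCNNNGAA, the core of STAT binding sites. All 4 read the same on both strands. Cacna1s had E-boxes starting at -160 and -123 from the start site and Casq1 at -195 and -67. Casq2 had them at -200 and -52, with a MEF2 match at -69 that does not overlap them. Ryr1 had none of the 4 motifs in this window. E-boxes occurred in 66.2% of 32851 promoters of this length, MEF2 matches in 2.92%, CArG boxes in 1.47% and the STAT core in 7.02%. No STAT core or CArG box was found in the 7 promoters of the 6 genes. Atp2a1 had an E-box at -55, and of the promoters of Pvalb, which has a pair of them, one had an E-box and the other a MEF2 match. A match is only a stretch of letters, and binding was not measured in these samples.

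Ratios of counts within a library do not depend on how libraries are scaled. For the fast and the slow form of the pump and of calsequestrin, the ratios of the genotypes overlapped. Atp2a1 had 6.73, 6.70 and 5.82 counts for each count of Atp2a2 in OsxCre and 6.32, 7.27 and 6.02 in OsxCre;Stat3fl/fl. The difference of the log2 ratio was 0.03 (exact permutation test, two-sided, p = 0.9). Casq1 had 0.897, 0.829 and 1.03 counts for each count of Casq2 in OsxCre and 1.03, 0.972 and 0.875 in OsxCre;Stat3fl/fl, a difference of 0.06 (exact permutation test, p = 0.8).

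The ratio of Sln to Atp2a1, the restraint to its pump, was 0.144, 0.182 and 0.131 in OsxCre and 0.268, 0.173 and 0.215 in OsxCre;Stat3fl/fl. Library 2 of OsxCre;Stat3fl/fl lay within the OsxCre range, and the difference of the log2 ratio was 0.52 (exact permutation test, two-sided, p = 0.2). The ratio of Pvalb to Atp2a1 spread widely in both genotypes, from 0.0273 to 0.0621 in OsxCre and from 0.0417 to 0.105 in OsxCre;Stat3fl/fl, with a log2 difference of 0.76 (exact permutation test, two-sided, p = 0.2). Adjusted over the 4 ratios tested, the exact permutation p-values were 0.4 for both of these and 0.9 for the others.

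A second set of ratios was chosen after the values were seen and is given without a test. Casq1 had 1.81, 1.89 and 1.65 counts for each count of Ryr1 in OsxCre and 3.54, 3.90 and 3.79 in OsxCre;Stat3fl/fl, a factor of 2.10 between genotypes. The ratio of Casq1 to Cacna1s went from 3.09, 3.01 and 3.25 to 6.33, 6.97 and 6.36, also a factor of 2.10. Within each genotype these ratios spread little, with SDs on the log2 scale of at most 0.10, and OsxCre;Stat3fl/fl library 2 had the highest value of both. The ratio of Ryr1 to Cacna1s overlapped between genotypes, with 1.71, 1.59 and 1.98 counts of Ryr1 for each count of Cacna1s in OsxCre and 1.79, 1.79 and 1.68 in OsxCre;Stat3fl/fl. Trdn, the anchor, had 0.409, 0.392 and 0.354 counts for each count of Ryr1 in OsxCre and 0.502, 0.486 and 0.666 in OsxCre;Stat3fl/fl. In proportion to Ryr1, Casq1 and Trdn were higher in every OsxCre;Stat3fl/fl library than in any OsxCre library. For Casq1 over Ryr1 or Cacna1s this was fixed by the choice of the pair. Casq1 was already higher, and Ryr1 and Cacna1s lower, in all OsxCre;Stat3fl/fl libraries. Trdn itself had a log2 fold change of -0.02 with TMM scaling, so its ratio mainly restates the lower Ryr1.

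**Figure D2:**
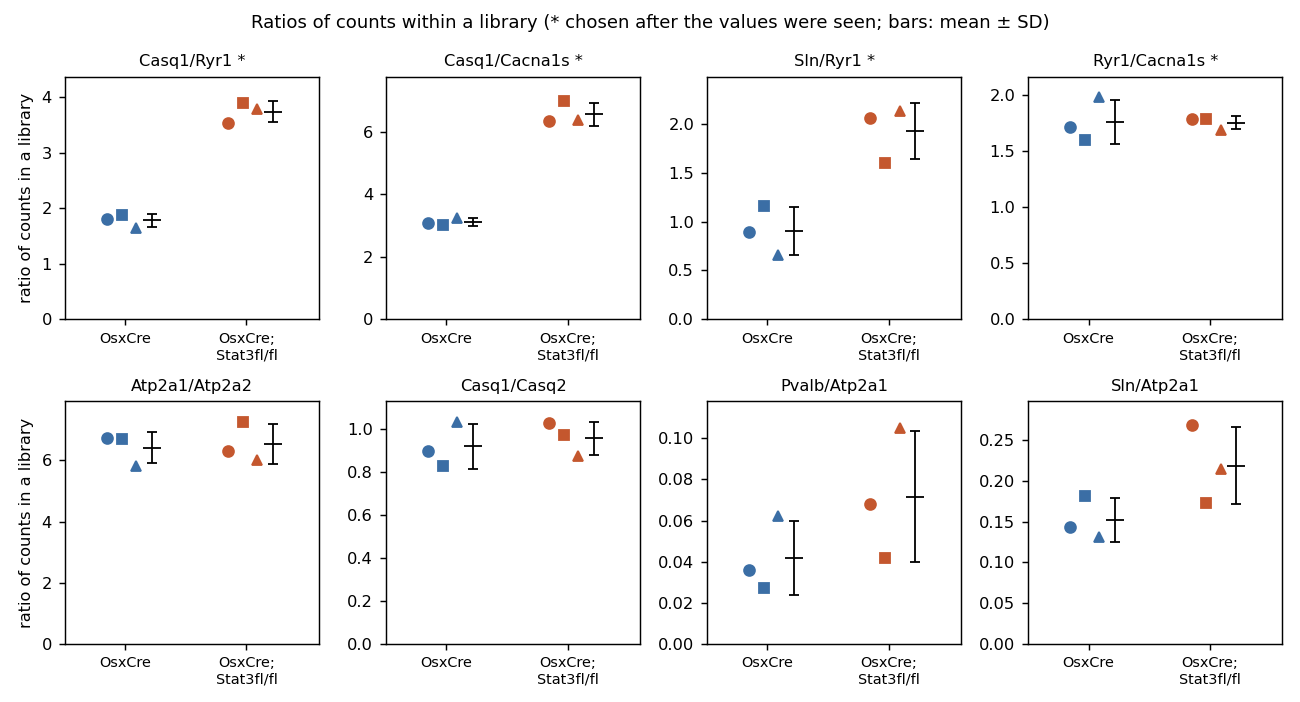
Ratio of the counts of a pair of genes within each library (y axis, from 0, no unit), with OsxCre in blue, OsxCre;Stat3fl/fl in orange and black bars for the mean ± SD (n = 3); asterisks mark ratios chosen after the values were seen. Casq1 over Ryr1 lies between 1.65 and 1.89 in OsxCre and between 3.54 and 3.90 in OsxCre;Stat3fl/fl, whereas Atp2a1 over Atp2a2 and Casq1 over Casq2 overlap.

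Since the muscle genes as a group were more counted in the OsxCre;Stat3fl/fl libraries, each of the 10 genes was also set against the summed counts of the 12 general muscle genes of its own library, a list that holds none of the 10. Ryr1 had 9.77, 9.59 and 11.3 counts per 1000 muscle counts in OsxCre and 5.604, 5.435 and 5.081 in OsxCre;Stat3fl/fl. Cacna1s had 5.72, 6.02 and 5.74 in OsxCre and 3.14, 3.04 and 3.02 in OsxCre;Stat3fl/fl. The log2 differences were -0.93 and -0.92, or factors of 0.526 and 0.527, with SDs within a genotype of at most 0.13 on the log2 scale. Voltage sensor and release channel thus stood at little over 0.5 of their proportion to this sum in the controls. Acta1, Mylpf, Ckm and Myl1 made up most of the sum, so it does not stand for all muscle transcripts. With TMM scaling the factors were 0.703 for Ryr1 and 0.706 for Cacna1s.

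Atp2a1 had 61.1, 60.9 and 57.3 counts per 1000 muscle counts in OsxCre and 43.0, 50.1 and 50.4 in OsxCre;Stat3fl/fl. Atp2a2 and Trdn lay likewise lower in all OsxCre;Stat3fl/fl libraries, with log2 differences of -0.35 and -0.42, while Jph1, with -0.41, overlapped. Casq1 had 17.7, 18.1 and 18.7 counts per 1000 muscle counts in OsxCre and 19.9, 21.2 and 19.2 in OsxCre;Stat3fl/fl, a log2 difference of 0.15 without overlap. Casq2, Sln and Pvalb overlapped, with log2 differences of 0.08, 0.19 and 0.44.

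On this scale the genotypes did not overlap for 5 of the 10 genes that were lower, where 42.6% of all genes tested were lower without overlap, and for 1 that was higher, where 1.15% were. The 6 genes without overlap had p = 0.1 in the exact permutation test, two-sided, the smallest it allows. When the whole table was scaled to the muscle counts in edgeR, Ryr1 and Cacna1s were the 2 called of the 10 (log2 fold change -0.93 and -0.93, adjusted p = 0.005426 and 0.005226), where 5.84% of all genes were called lower. That scaling moved the median of all genes to -0.40, and 0.41% of all genes were called higher. Relative to this median Ryr1 and Cacna1s stood at -0.53, Casq1 at 0.55, Casq2 at 0.48 and Sln at 0.58. Subtracting the median largely undoes the scaling, so these values lie close to the TMM-scaled ones by construction. The part of muscle content in the values of the 10 genes was not tested.

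**Figure D3:**
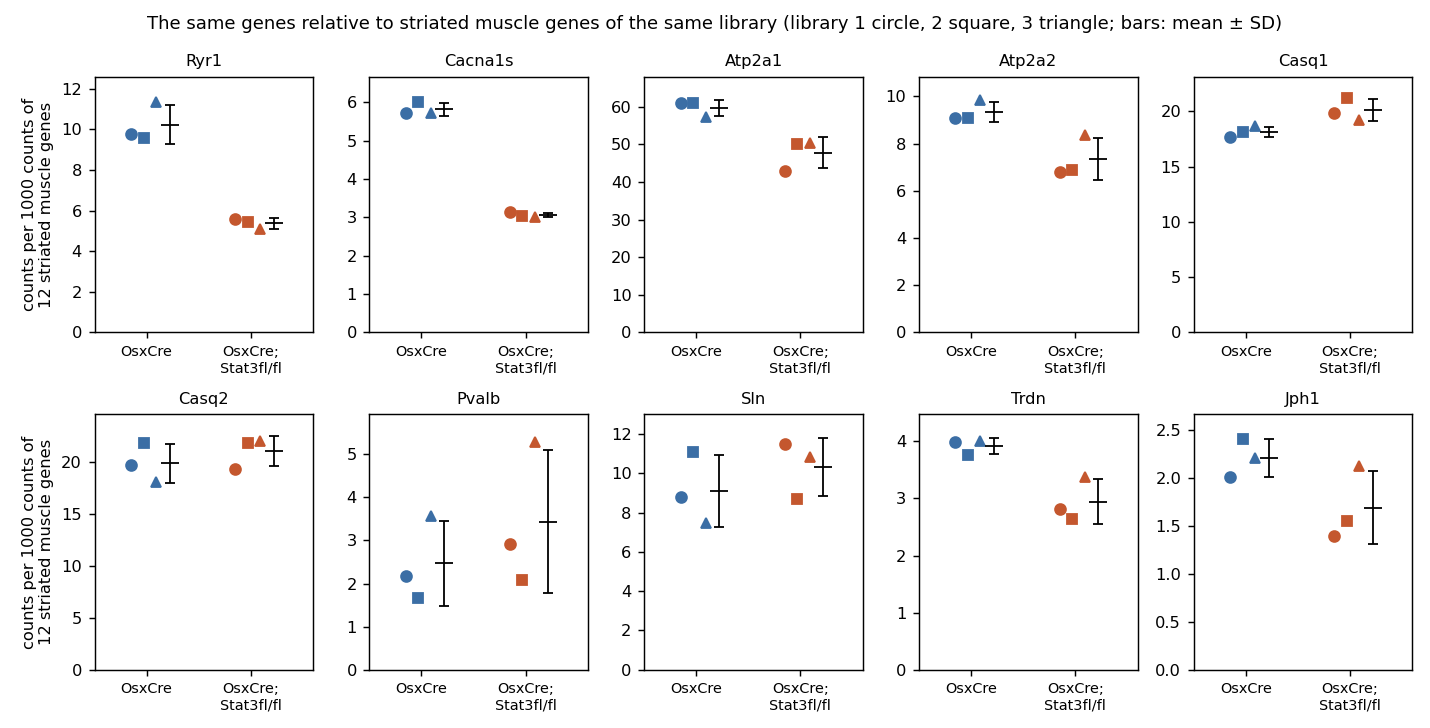
Counts of each of the 10 genes per 1000 counts of 12 striated muscle genes of the same library (y axis, from 0), with OsxCre in blue, OsxCre;Stat3fl/fl in orange and black bars for the mean ± SD (n = 3). Ryr1 lies between 9.59 and 11.3 in OsxCre and between 5.081 and 5.604 in OsxCre;Stat3fl/fl, Cacna1s shows the same gap, and Casq2, Pvalb, Sln and Jph1 overlap.

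Transcript length was looked at because Ryr1, at 15362 bases, and Cacna1s, at 6251 bases, are the longest of the 10, and Sln, at 515, and Pvalb, at 977, the shortest. The median log2 fold change of all genes was -0.01 for transcripts up to 1000 bases (862 genes) and 0.02 for those over 10000 bases (241 genes). With an offset for transcript length, added after the data were seen, Ryr1 had a log2 fold change of -0.52 and Cacna1s one of -0.50, and 0 of the 10 genes were called. The part of transcript length in their values was not tested further.

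Other genes of the same machinery were read as 4 lists, 29 genes in all, of which 27 had enough counts to be tested. In edgeR 1 of the 27 fell and 0 rose, where 0.481% of all genes tested were called lower and 0.776% higher. Of the 27 log2 fold changes, 19 were below 0 and 8 above, with a median of -0.15. The gene that fell was Slc8a3, a sodium-calcium exchanger that carries calcium out of cells. Which cells of the bulk tissue held its transcripts was not measured. It had 52.8, 57.9 and 60.2 CPM in OsxCre and 38.8, 40.3 and 39.5 CPM in OsxCre;Stat3fl/fl (log2 fold change -0.53, standard error 0.08, adjusted p = 0.0284). The partners of the voltage sensor and the triad numbered 8, with 7 log2 fold changes below 0, 0 called and a median of -0.16. Among them, Cacna2d1, an accessory subunit of the voltage sensor, had 124, 127 and 156 CPM in OsxCre and 88.0, 112 and 95.7 CPM in OsxCre;Stat3fl/fl, without overlap (adjusted p = 0.1274 from edgeR). It was the 1 of the 8 that was lower without overlap, where 12.2% of all genes tested were. Cacnb1 and Cacng1, further subunits of the sensor, overlapped, with log2 fold changes of -0.20 and -0.12. Tmem38a, a potassium channel of the reticulum and the most counted of the 8, had a log2 fold change of -0.15 (standard error 0.14). Stac3, the adaptor that links sensor and release channel, had a log2 fold change of 0.00 (standard error 0.14).

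Over 9 partners of the release channel and the store, the median was -0.19 on the log2 scale, with 0 called. Srl, which encodes the reticulum protein sarcalumenin and was the most counted, had 862, 859 and 883 CPM in OsxCre and 886, 1251 and 763 CPM in OsxCre;Stat3fl/fl, with library 2 again the highest. Other uptake and pump genes numbered 5 tested, Slc8a3 included, with a median of -0.06. Mcu, the pore of the mitochondrial calcium uniporter and the most counted, had a log2 fold change of 0.12 and overlapping genotypes. Pln, a pump inhibitor of heart and slow muscle related to sarcolipin, was too low to test, with 12, 9 and 14 counts in OsxCre and 2, 5 and 4 in OsxCre;Stat3fl/fl. The list of t-tubule and store entry genes had a median of 0.26 over 5 genes, 4 of them above 0 and 0 called. Cav3, the muscle caveolin and its most counted gene, had 61.6, 70.1 and 58.7 CPM in OsxCre and 71.9, 85.8 and 70.3 CPM in OsxCre;Stat3fl/fl. Scaled to the muscle counts, 9 of the 27 were called lower in edgeR, where 5.84% of all genes were, and 0 higher. Among those called were Cacnb1 at -0.62 on the log2 scale, Cacna2d1 at -0.86, Sypl2 at -0.73, Tmem38a at -0.57, Asph at -0.71, Hrc at -0.67 and Slc8a3 at -0.92. These genes encode sensor subunits, triad proteins, a relative of the anchor and a store protein, and the exchanger. Also called lower on that scale were 3 of 10 calcium handling genes that most cells use, 2 of 8 osteoblast and 2 of 4 tested erythroid genes. Fast fibre genes had 2 of 8, and smooth muscle and cardiac genes 1 of 5 tested each. The osteoclast, macrophage, endothelial, cartilage, neuronal, adipocyte, slow fibre, developing fibre and muscle progenitor lists had 0. So did the 12 general muscle genes, whose sum sets the scale.

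Calcium handling genes that most cells use were a separate list of 10, all tested. Of these, 2 fell and 0 rose, where 0.481% of all genes tested were called lower and 0.776% higher. Calr encodes calreticulin, which stores calcium in the endoplasmic reticulum of non-muscle cells. It had 715, 676 and 572 CPM in OsxCre and 395, 377 and 340 CPM in OsxCre;Stat3fl/fl (log2 fold change -0.82, standard error 0.11, adjusted p = 0.01999 from edgeR). Canx, its membrane-bound relative calnexin, had 303, 307 and 286 CPM in OsxCre and 208, 210 and 215 CPM in OsxCre;Stat3fl/fl (log2 fold change -0.50, adjusted p = 0.0213 from edgeR). Calu, a calcium-binding protein of the secretory pathway and the most counted of the list, had a log2 fold change of -0.14 and was not called. Calreticulin and calnexin are also chaperones of newly made glycoproteins.

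**Figure D4:**
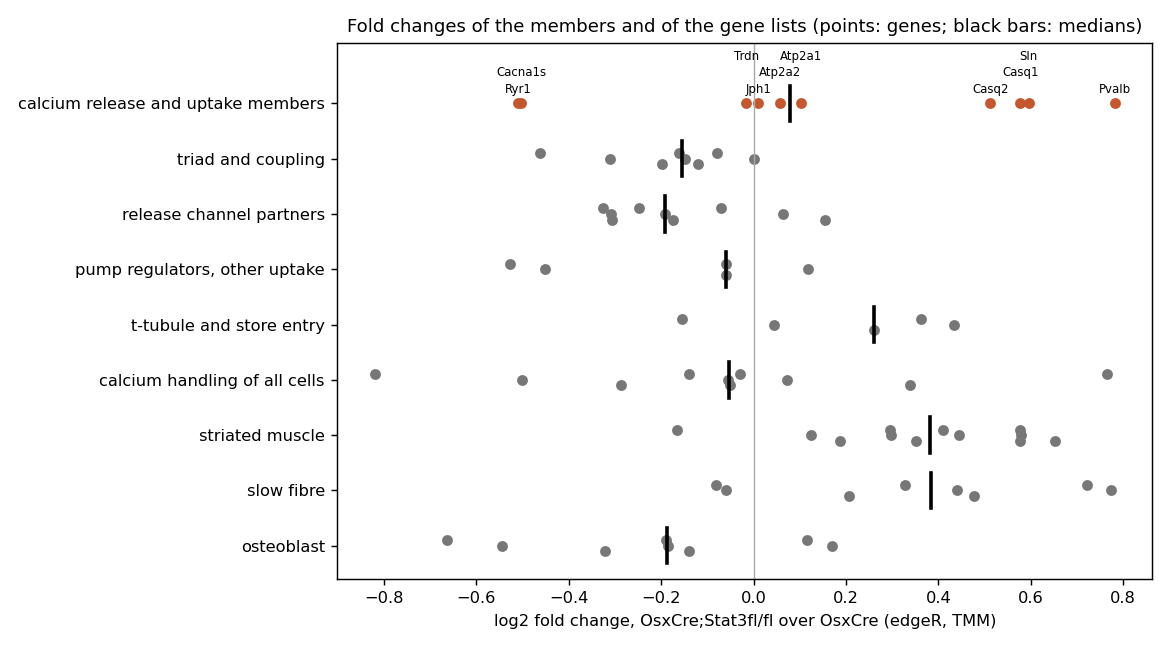
Log2 fold changes of OsxCre;Stat3fl/fl over OsxCre (x axis, edgeR with TMM scaling) for the 10 genes, named above their points, and for other lists, with 1 point per tested gene and black bars for medians. The 10 genes fall into Ryr1 and Cacna1s near -0.50, a middle group near 0 and Casq2, Casq1, Sln and Pvalb above 0.50, the striated muscle genes have a median of 0.38 and the osteoblast genes one of -0.19.

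Casq2 and Atp2a2 are also heart genes, so cardiac genes were read. Nppa had 1 count and Nppb 2 over all 6 libraries, and Ryr2, the heart's ryanodine receptor, had between 2.94 and 5.95 CPM. Myh6, the heart's main myosin in the mouse, had 2.92 to 5.46 CPM in 5 libraries and 52.5 CPM in OsxCre;Stat3fl/fl library 2, the library highest in the muscle genes. The summed level of the 7 cardiac genes was 57.1 to 69.7 CPM in OsxCre and 42.1 to 96.1 CPM in OsxCre;Stat3fl/fl, with 5 tested and 0 called.

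Among fibre types, the 8 slow fibre genes had a median of 0.38 on the log2 scale with 0 called, and summed to 1438 to 1670 CPM in OsxCre and 1708 to 2465 CPM in OsxCre;Stat3fl/fl. The 8 fast fibre genes had a median of 0.50 and summed to 10414.5 to 11134 CPM in OsxCre and 11161 to 17134 CPM in OsxCre;Stat3fl/fl, and Myh4, a fast adult myosin, was the 1 gene called and fell by 3.61 on the log2 scale. Of 3 tested genes of developing fibres, the embryonic myosin Myh3 rose (log2 fold change 1.71, adjusted p = 0.02037 from edgeR). None of the 4 genes of muscle progenitors was called, and they summed to 125 to 139 CPM in OsxCre and 116 to 188 CPM in OsxCre;Stat3fl/fl. Among osteoblast genes, 1 of 8 was called, Ibsp, which fell (log2 fold change -0.66). Over all genes tested, 0.481% were called lower and 0.776% higher. None of the osteoclast, macrophage, erythroid, endothelial, smooth muscle, cartilage, neuronal or adipocyte genes was called. Of these lists, 2 had summed levels that did not overlap, the 5 erythroid genes with 2228 to 3752 CPM in OsxCre and 1161 to 2079 CPM in OsxCre;Stat3fl/fl, and the 5 macrophage genes with 96.8 to 114 CPM and 118 to 128 CPM. The part of these lists in the values of the 10 genes was not tested.

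The genes whose pattern over the 6 libraries was most like the mean of the 10 (each standardised on the log2 CPM scale) were Ube2h, Gm16089, Ndufv2, Ndufb11 and Mpc1, with Pearson's r between 0.990 and 0.997. The 5 genes had log2 fold changes between 0.09 and 0.19. The 10 genes did not share 1 pattern, with Pearson's r of 0.96 for Ryr1 and Cacna1s and -0.67 for Ryr1 and Sln. Their mean thus need not describe any of them. The 5 genes were picked as the highest r among all genes tested, over only 6 libraries. What r such picking alone would give was not tested.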

How the data were processed

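RNA-seq libraries of parietal bone from 3 OsxCre and 3 OsxCre;Stat3fl/fl newborns were analysed. The authors deposited whole-number counts per gene symbol, 1 table per library, without normalization. The submitters' processing notes name HISAT2 and GRCm38, whereas the Methods name TopHat, mm9 and Cufflinks. The counting program, annotation and use of strand are not given in the sources used here, so reads that paralogs or overlapping genes share could have been split either way. Depth was 8193651 to 12080044 counts per library, and 3 counts, the limit that a count of 0 allows, were 0.248 to 0.366 CPM. The Methods give 3 mice per genotype, so p-values measure the spread between these animals.

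Genotypes were compared in R 4.3.3 with edgeR 4.0.16 (filterByExpr with a minimum count of 10 and minimum total of 15, TMM, quasi-likelihood test, two-sided, Benjamini-Hochberg adjustment over 15600 genes). The standard error is the size of the log2 fold change divided by the square root of F. Ratios within a library used a pseudocount of 0.5 and exact permutation tests. Alternatives used DESeq2 1.42.0, limma 3.58.1 (voom), other scalings and filters, the replicate number as a block, a length offset (loess, span 0.5) and leaving out each library. Transcript lengths came from GENCODE protein-coding transcripts (NCBIM37), found for 88.6% of genes tested, and promoters from RefSeq (GRCm38.p6). Fits were tested on simulated data.

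The 10 genes and the lists were chosen with earlier results of these data known. Genes named are the 10, Stat3, up to 3 of each marker list, called or most counted members of the lists, up to 5 per list, and the 5 genes most like the 10. Nppa, Nppb, Pln, Myh6, Ryr2, Stac3, Cacna2d1 and the genes called only after muscle scaling were named after their values were seen, and some genes of the lists are not reported here by name. No library duplicated another of its genotype (chi-square per degree of freedom 7.51 to 15.6).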

Additional observations from a re-analysis of the deposited data

How the results depend on the processing

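The count of the 10 genes called lower, 0, became 2 without scaling of the counts, 1 without the filter, 1 with DESeq2's Wald test and 2 with scaling to muscle counts. The count called higher, 0, became 1 without the filter and 3 with DESeq2. Leaving out each library in turn gave 0 in every case. Among all 15600 genes tested, edgeR with TMM called 75 lower and 121 higher. The lower calls among these 15600 genes numbered 114 with library totals and 5451 without scaling. The 2 of the 10 genes called lower without scaling thus stand beside 5451 of 15600. Scaling to muscle counts called 5.84% of all genes lower. Without the filter 178 were lower and 250 higher of 28016 genes tested. With DESeq2 235 were lower and 304 higher of the 14385 genes to which it gave an adjusted p. A block for the replicate number gave 1 and 0. Leaving out a library gave between 5 and 36 lower and between 7 and 67 higher.

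Ryr1, Cacna1s, Casq1, Casq2, Pvalb and Sln kept their direction under every alternative run. Genes near 0 changed sign. Without scaling the log2 fold change was -0.28 for Atp2a1, -0.33 for Atp2a2 and -0.37 for Jph1, where the median of all genes was -0.38, and with scaling to muscle counts it was -0.32, -0.35 and -0.39. Jph1 was at -0.040 with library totals. With each library left out, Atp2a1 ranged from -0.094 to 0.20, Atp2a2 from -0.045 to 0.16, Trdn from -0.092 to 0.058 and Jph1 from -0.079 to 0.14. The lowest values of Atp2a1, Atp2a2 and Jph1 came without OsxCre;Stat3fl/fl library 2. Atp2a2 was at -0.01 without OsxCre library 2. Jph1 was at -0.06 without OsxCre library 1 and at -0.03 without OsxCre;Stat3fl/fl library 3. Trdn was at 0.058 without OsxCre library 3, 0.03 without OsxCre;Stat3fl/fl library 1 and 0.01 without OsxCre;Stat3fl/fl library 3. The cause of these changes was not tested beyond what each setting leaves out.

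Libraries that share a number did not deviate together from their genotype means over all genes (correlations between -0.528 and -0.0686, mean -0.233). With 3 libraries per genotype, these correlations cannot decide whether the numbers mark pairs of littermates. With the replicate number as a block, 0 of the 10 genes were called lower and 0 higher. With each library left out, the log2 ratio difference ranged from 0.44 to 1.10 for Pvalb to Atp2a1, 0.36 to 0.67 for Sln to Atp2a1, -0.05 to 0.08 for Atp2a1 to Atp2a2 and -0.01 to 0.15 for Casq1 to Casq2, and the exact test of 3 libraries against 3 could not pass 0.05 for any ratio. Each of the 10 genes had at least 490 counts in every library.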
